A study of Mus musculus with 9 samples.

Results

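Immune checkpoint ligand genes, 10 in number, were followed across mouse organoids, cultures in a matrix or suspension that resemble a tissue in part. The genes were taken by symbol: Cd274, Pdcd1lg2, Cd276, Cd80, Cd86, Icosl, Nectin2, Pvr, Cd47 and Lgals9. All 10 were found once among the 57010 gene identifiers of each of the authors' 2 comparison tables. The 9 libraries formed 3 groups of 3, namely normal lung (Normal), small cell lung cancer (SCLC) and SCLC treated with an agent that the labels call GSK (GSK). Per the labels, Normal had normal lung as its cell type, and both other groups had SCLC. Strain, genotype, age, the identity of GSK, its dose and its time were not given in the sources used here.

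Checkpoint ligands are surface or secreted proteins through which a cell restrains or triggers immune cells that touch it. Cd274 (PD-L1) and Pdcd1lg2 (PD-L2) bind the inhibitory receptor PD-1 on T cells, Cd80 and Cd86 bind the activating receptor CD28 and the inhibitory receptor CTLA-4, and Icosl binds ICOS. Nectin2 and Pvr are adhesion proteins of epithelia that bind TIGIT and CD226 on T and NK cells, Cd47 binds SIRPα on macrophages as a signal against engulfment, and Lgals9 is a galectin that binds TIM-3. Interferon gamma is a known inducer of Cd274 in many cell types, and dendritic cells, macrophages and B cells are the usual sources of Cd80 and Cd86. Neuroendocrine SCLC is known for low PD-L1 and high B7-H3, the product of Cd276.

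The values came from the authors' deposited tables, which give for each gene a mean over 6 libraries, a log2 fold change with its standard error and an adjusted p, and no value of a single library. A level below is therefore the mean of a group implied by that mean and fold change, in normalized counts, and neither the spread nor any overlap of single libraries could be shown. Errors after ± are the authors' standard errors of the log2 fold change between 3 and 3 libraries, and a gene passed at an adjusted p under 0.05. Nothing in the labels says that libraries of a group came from separate cultures or animals, so the p-values measure the spread between these libraries, which may be technical. Summed over genes, the implied totals per the authors' deposited tables were 44.7 M (M, mega) for Normal and 42.0 M for SCLC in the first comparison, and 45.3 M for SCLC and 31.9 M for GSK in the second. The tables were scaled separately, and the SCLC means of the second lay above those of the first by a median of 0.109 on the log2 scale.

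The libraries labelled GSK carried markers of cells that their labels do not name. In the authors' deposited table, all 6 T and NK cell markers rose from SCLC to GSK, as did 12 of 13 macrophage and dendritic cell markers, 4 of 5 B cell markers, all 6 fibroblast markers, all 5 endothelial markers and 4 of 5 alveolar type II markers. Over all genes tested in that comparison, 21.6% were higher in GSK and 15.5% were lower, per the authors' deposited table. Of the myeloid list only Zbtb46, a dendritic cell factor gene, was lower (-1.34 ± 0.57), per the authors' deposited table. The summed level of the macrophage and dendritic cell list was 902 in SCLC and 40834 in GSK, and that of the T and NK cell list was 5.19 and 3312, from the authors' deposited table. Of the 902 in SCLC, 727 were from Zbtb46 alone, from the authors' deposited table. Of the 40834 in GSK, 12562 were from Ptprc, a list member that is not particular to macrophages and dendritic cells, from the authors' deposited table. The B cell list went from 182, of which 159 were from Pax5, which did not pass, to 2182, the fibroblast list from 28.5 to 14652 and the endothelial list from 56.6 to 16067, from the authors' deposited table. Ptprc, the pan-leukocyte antigen CD45, had an implied mean under 1 normalized count in SCLC and of 12562 in GSK per the authors' deposited table. Under that mean of 1 in SCLC also lay Adgre1, Itgam, Itgax, Marco, C1qa, Ccr7, Ms4a1, Cd79b, Cd3e, Cd3d, Cd8a, Nkg7, Gzmb, Cdh5 and Tie1, from the authors' deposited table. Of 7 neuroendocrine markers, 4 were lower in GSK, among them Insm1, Uchl1 and Syp with log2 fold changes of -1.95, -1.48 and -1.33, and Calca rose by 1.15, per the authors' deposited table. In bulk libraries a change in the share of cells of a type and a change in RNA per cell cannot be told apart.

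Normal also held such markers. From the authors' deposited table, its summed level was 7082 for the macrophage and dendritic cell list and 9587 for the fibroblast list, against 836 and 26.4 in SCLC, while the T and NK cell list summed to 3.69 and 3.75. Zbtb46 alone, at 166 in Normal, made up 674 of the 836 in SCLC, from the authors' deposited table. The defining markers of each labelled type were present: the 5 alveolar type II markers summed to 2641470 in Normal and 4543 in SCLC, and the 7 neuroendocrine markers to 93.1 and 144953, per the authors' deposited table. Of the 4543 in SCLC, 4213 were from Abca3 alone, which did not pass in GSK against SCLC, from the authors' deposited tables. Epithelial keratin and adhesion markers, 5 in number, all fell from Normal to SCLC, from a sum of 87237 to 7552, per the authors' deposited table. Over all genes tested in that comparison, 25.1% were lower in SCLC and 25.3% were higher, per the authors' deposited table. The part of these markers in the results below was not tested.

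**Figure D1:**
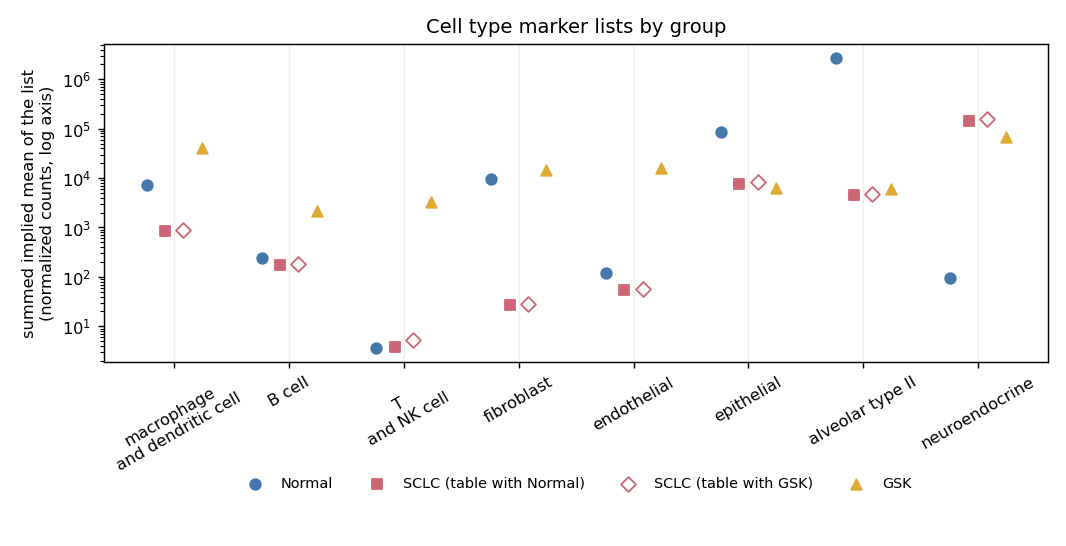
Summed implied means of 8 cell type marker lists (normalized counts, log axis) in Normal, SCLC and GSK, with SCLC shown as each of its comparison tables gives it. GSK lies far above SCLC for the leukocyte, fibroblast and endothelial lists, for example 40834 against 902 for macrophages and dendritic cells, and below it for the neuroendocrine list. The macrophage and dendritic cell list includes the pan-leukocyte gene Ptprc, which made up 12562 of the 40834 in GSK.

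Which ligand was the most abundant differed between the groups. Per kilobase of exon, a scale that allows genes to be compared with each other, Nectin2 had the highest level in Normal, at 3284 normalized counts per kilobase, followed by Lgals9 at 1618, Cd47 at 609 and Pvr at 443, from the authors' deposited table. In SCLC, Cd276 came first at 1098 per kilobase, Cd47 was at 592 and Nectin2 at 473, and the other 7 genes were at 42.8 or less, from the authors' deposited table with Normal. In GSK, Cd47 came first at 938 per kilobase, and Cd274 at 525, Lgals9 at 520.4 and Cd276 at 476 lay close together, from the authors' deposited table. Cd276 thus made up 48.5% of the summed level per kilobase of the 10 genes in SCLC, against 2.94% in Normal and 15.6% in GSK, from the authors' deposited tables. For Cd274 the share was 0.131% in SCLC, 0.397% in Normal and 17.2% in GSK, from the authors' deposited tables. At the bottom of the order stood Cd86 and Pdcd1lg2, both under a mean of 1 in SCLC and therefore not ordered there, from the authors' deposited tables. Without values of single libraries, neighbours in these orders could not be tested against each other.

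**Figure D2:**
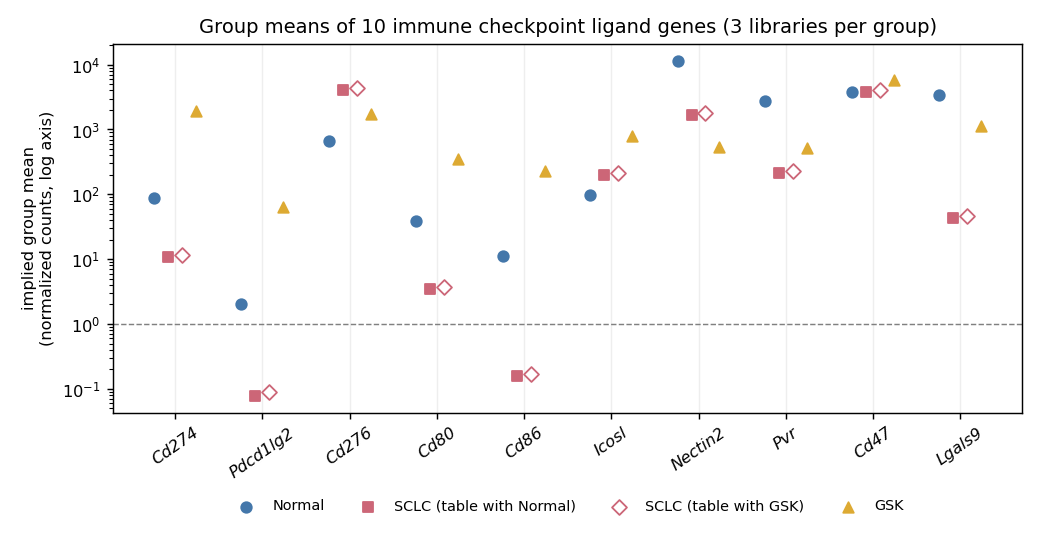
Implied group means of the 10 checkpoint ligand genes (normalized counts, log axis), with the 2 values of SCLC from its separate comparison tables and a dashed line at a mean of 1. Cd274, Cd80, Cd86, Lgals9 and Pvr had their lowest mean in SCLC. Of these, Cd274, Cd80 and Cd86 had their highest mean in GSK, and Lgals9 and Pvr in Normal. Pdcd1lg2 was highest in GSK, and no change between Normal and SCLC was detectable for it. Cd276 was highest in SCLC, and Cd47 passed in neither comparison, though it passed as higher in GSK when scaled to equal totals.

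Promoter sequence is shown for 4 genes, the neighbouring PD-1 ligand genes, which rose with GSK, and 2 genes that were higher in SCLC than in Normal. Of these 2, Icosl also rose with GSK, and its call in SCLC ended under several alternatives. The 4 are shown because their promoters differ in their content of CpG, the dinucleotide at which vertebrate DNA is methylated. Windows of 250 bases upstream of the start site were taken from RefSeq, build GRCm38.p6, in which 8 of the 10 genes matched; Cd86 and Pvr are named only. CpG dinucleotides are in capitals. The windows are chr19:29367188-29367437, plus strand (Cd274), chr19:29410669-29410918, plus strand (Pdcd1lg2), chr9:58555034-58555283, minus strand (Cd276), and chr10:78069118-78069367, plus strand (Icosl).
Cd274: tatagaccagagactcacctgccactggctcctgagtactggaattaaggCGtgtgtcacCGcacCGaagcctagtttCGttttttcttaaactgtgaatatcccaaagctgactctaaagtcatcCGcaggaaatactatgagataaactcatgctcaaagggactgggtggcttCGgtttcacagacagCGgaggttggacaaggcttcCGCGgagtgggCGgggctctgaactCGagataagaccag
Pdcd1lg2: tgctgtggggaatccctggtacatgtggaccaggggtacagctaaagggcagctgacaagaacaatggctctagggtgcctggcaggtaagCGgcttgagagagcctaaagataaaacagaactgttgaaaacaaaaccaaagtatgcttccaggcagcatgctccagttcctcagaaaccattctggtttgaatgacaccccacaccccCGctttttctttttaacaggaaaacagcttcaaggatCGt
Cd276: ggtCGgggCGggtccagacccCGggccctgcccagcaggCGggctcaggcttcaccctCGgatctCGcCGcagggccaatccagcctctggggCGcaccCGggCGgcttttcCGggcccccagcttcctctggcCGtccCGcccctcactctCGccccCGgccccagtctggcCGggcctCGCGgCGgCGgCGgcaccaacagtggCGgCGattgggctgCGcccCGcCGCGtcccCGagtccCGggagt
Icosl: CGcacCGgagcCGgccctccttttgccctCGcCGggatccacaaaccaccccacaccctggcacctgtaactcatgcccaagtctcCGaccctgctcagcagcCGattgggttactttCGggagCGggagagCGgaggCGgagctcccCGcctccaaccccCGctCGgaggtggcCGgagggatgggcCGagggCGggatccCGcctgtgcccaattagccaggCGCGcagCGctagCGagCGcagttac

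The window of Cd276 held 29 CpG and that of Icosl 23, against 11 for Cd274 and 3 for Pdcd1lg2. Over all 32851 promoter windows of the table the median was 6, and 94.1% of them held no more CpG than that of Cd276. Of the other members, Cd47 held 30 in its first listed window, Nectin2 16, Cd80 3 and Lgals9 3. Both strands were searched for the interferon regulatory factor core GAAANNGAA, the STAT site TTCNNNGAA, the E-box CACGTG and a spelling of the NF-kB site, GGGANTTCC. N is any base. Cd274 and Lgals9 held 1 match each to the first, which 7.13% of all windows held. The other 3 motifs as spelled here were held by 7.02%, 6.02% and 1.43% of all windows and had no match in the members' windows. A match describes the letters only. Other spellings of these sites, those of NF-kB among them, were not searched, so the windows may hold them.

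SCLC was first set against Normal, the tumour organoids against those of normal lung. Of the 9 ligand genes with an adjusted p, 6 were lower in SCLC (Cd274, Cd80, Cd86, Nectin2, Pvr and Lgals9) and 2 were higher (Cd276 and Icosl), per the authors' deposited table. Among all 24719 genes tested, 50.4% passed, 25.3% higher and 25.1% lower, per the authors' deposited table. The median log2 fold change of the 9 genes was -3.06, against 0.10 over all genes tested, per the authors' deposited table.

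Of the PD-1 ligands, Cd274 had an implied mean of 89.1 in Normal and of 10.7 in SCLC, from the authors' deposited table. Its level was 8.32-fold lower in SCLC (log2 fold change -3.06 ± 0.87, adjusted p = 0.00132) per the authors' deposited table. Tested against an absolute log2 fold change of 1, the fall of Cd274 no longer passed (adjusted p = 0.0693), from the authors' deposited table. Pdcd1lg2 was close to undetected in either group, at 2.06 in Normal and under 1 in SCLC, and had a p of 0.237 without an adjusted value per the authors' deposited table. A change of Pdcd1lg2 was not detectable at this depth.

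The CD28 family ligands were also low in SCLC. Cd80 went from 39.0 in Normal to 3.45 in SCLC (log2 fold change -3.50 ± 0.84, adjusted p = 0.000104) per the authors' deposited table. Cd86 went from 11.1 to under 1, so that it was at least 11.1-fold lower (adjusted p = 0.000395), per the authors' deposited table. In the same pair of groups the macrophage marker Adgre1 went from 735 to under 1 and the macrophage receptor gene Marco from 2949 to under 1, per the authors' deposited table. Of the 12 tested genes of that marker list, 9 were lower and 2 were higher, Flt3 (at least 12.4-fold) and Zbtb46 (2.02 ± 0.51), per the authors' deposited table, and the part of the list was not tested. Icosl, the ligand of ICOS, moved the other way, from 98.7 to 198 (log2 fold change 1.0 ± 0.43, adjusted p = 0.0392), per the authors' deposited table. That call ended when p-values were adjusted over every gene with a p-value (adjusted p = 0.0532) and when fold changes were centred on the median of genes with a mean of 100 or more (0.82, adjusted p = 0.0988), from the authors' deposited table.

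Cd276 had the largest rise of the 10 genes in SCLC. It went from 667 in Normal to 4015, a 6.02-fold rise (log2 fold change 2.59 ± 0.28, adjusted p = 2.84e-19), per the authors' deposited table. Its rise ranked 1439 among the 12887 tested genes with a mean of 100 or more, per the authors' deposited table, so that many genes rose further.

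Nectin2 and Pvr, the members of the set that bind TIGIT and CD226, both fell. Nectin2 went from 11474 in Normal to 1652 (log2 fold change -2.80 ± 0.29, adjusted p = 7.09e-21) and was the third most abundant ligand per kilobase in SCLC, after the first place in Normal, per the authors' deposited table. Pvr went from 2714 to 211 (log2 fold change -3.69 ± 0.37, adjusted p = 1.88e-22) per the authors' deposited table. Beside them, the adhesion gene Cdh1 had -4.24 ± 1.29 and the keratin gene Krt19 had -7.39 ± 1.22 per the authors' deposited table, and their part in these falls was not tested. The largest fall with both groups above a mean of 1 was that of Lgals9, from 3459 to 43.0 (log2 fold change -6.33 ± 0.53, adjusted p = 1e-31), per the authors' deposited table. Cd47 had implied means of 3825 and 3716 and a log2 fold change of -0.04 ± 0.34 (adjusted p = 0.932) per the authors' deposited table. The 95% interval of that difference ran from -0.72 to 0.63 on the log2 scale, from the authors' deposited table.

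GSK was then set against SCLC, per the labels treated against untreated tumour organoids. The libraries labelled GSK held the leukocyte, stromal and endothelial markers given above, and whether they held organoid cells only cannot be told from the sources used here. Of the 10 ligand genes, 7 were higher in GSK (Cd274, Pdcd1lg2, Cd80, Cd86, Lgals9, Icosl and Pvr), 2 were lower (Cd276 and Nectin2) and Cd47 did not pass, per the authors' deposited table. Among all 28376 genes tested, 37.1% passed, 21.6% higher and 15.5% lower, per the authors' deposited table. The median log2 fold change of the 10 was 3.23, against 0.24 over all genes tested, per the authors' deposited table. Of all calls, 58.2% were higher, a share that became 81.6% when fold changes were scaled to equal totals (a shift of 0.51) and 70.2% when centred on the median of genes with a mean of 100 or more (a shift of 0.25), from the authors' deposited table.

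Cd274 showed a large rise. Its implied mean went from 11.5 in SCLC to 1903 in GSK, a 165-fold difference (log2 fold change 7.37 ± 0.76, adjusted p = 2.87e-20), per the authors' deposited table. Among the 13498 tested genes with a mean of 100 or more it ranked 586 by size of rise, per the authors' deposited table. Pdcd1lg2, under a mean of 1 in SCLC, reached 63.2 in GSK and was thus at least 63.2-fold higher (adjusted p = 1.05e-10), per the authors' deposited table. The 2 genes are neighbours: their start sites lie 43481 bases apart on the same strand of chromosome 19 in RefSeq's GRCm38.p6 annotation.

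Cd80 and Cd86 came up from near absence. Cd80 went from 3.76 to 350.3 (log2 fold change 6.54 ± 0.70, adjusted p = 4.67e-19) per the authors' deposited table. Cd86 went from under 1 to 226, at least 226-fold higher (adjusted p = 5.58e-14), per the authors' deposited table. Beside these, 12 of 13 macrophage and dendritic cell markers rose and Zbtb46 fell from 727 to 287, per the authors' deposited table. Itgax, an integrin gene of that list, went from under 1 to 5002 and the macrophage receptor gene Csf1r from 3.56 to 5282, per the authors' deposited table. The B cell list summed to 182 in SCLC, of which 159 were from Pax5, which did not pass, and to 2182 in GSK. The part of those cell types in the levels of Cd80, Cd86, Cd274 and Pdcd1lg2 was not tested. Lgals9 went from 46.2 to 1112 (log2 fold change 4.59 ± 0.59, adjusted p = 1.37e-13) per the authors' deposited table. Icosl went from 213 to 784 (log2 fold change 1.88 ± 0.35, adjusted p = 6.14e-07) per the authors' deposited table. These 6 genes rose under both scalings as well, from the authors' deposited table. Tested against an absolute log2 fold change of 1, Icosl no longer passed (adjusted p = 0.0785), from the authors' deposited table.

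**Figure D3:**
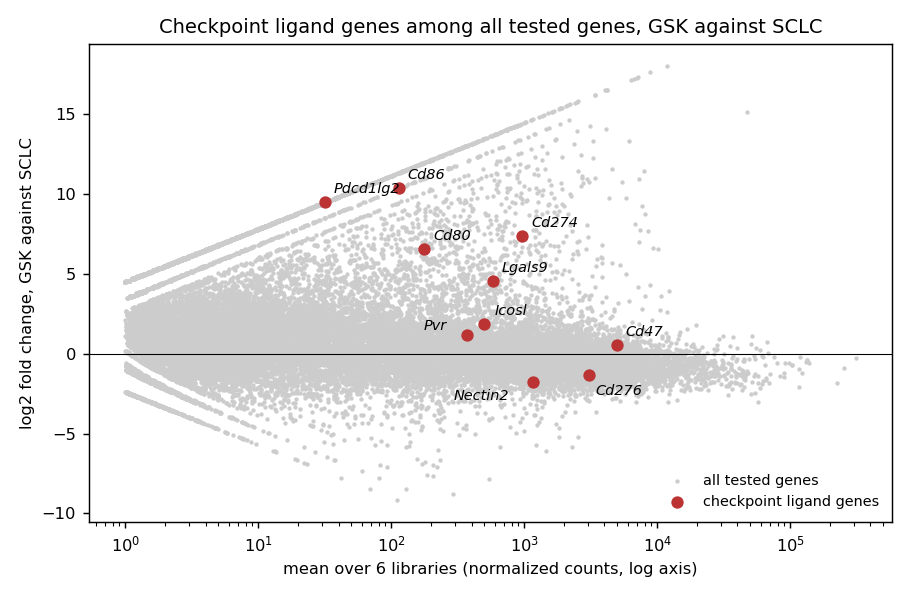
Log2 fold change of GSK against SCLC (vertical axis) against the mean over 6 libraries (normalized counts, log axis) for 28376 tested genes in grey, with the 10 checkpoint ligand genes in red. Cd86 and Pdcd1lg2 lie on or near the upper edge formed by genes nearly absent from SCLC, Cd274, Cd80 and Lgals9 lie in the upper cloud, and Cd276 and Nectin2 lie below 0.

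Cd276 and Nectin2 fell. Cd276 went from 4339 in SCLC to 1739.9 in GSK, 2.49-fold lower (log2 fold change -1.32 ± 0.33, adjusted p = 0.000293), per the authors' deposited table. Nectin2 went from 1774 to 533, 3.33-fold lower (log2 fold change -1.73 ± 0.30, adjusted p = 8.60e-08), per the authors' deposited table. Scaled to equal totals, both falls were smaller and still passed, from the authors' deposited table. Cd276 was then at -0.81 (adjusted p = 0.0355) and Nectin2 at -1.23 (adjusted p = 0.000235), from the authors' deposited table. The median of the 7 neuroendocrine markers was -1.33, per the authors' deposited table. That of the 5 epithelial markers was -0.37, none of them passed as lower and Krt19 was higher (2.74 ± 0.92), per the authors' deposited table. The part of either list in the fall of Cd276 and Nectin2 was not tested. Tested against an absolute log2 fold change of 1, neither fall passed (adjusted p = 1 for Cd276 and 0.0971 for Nectin2), from the authors' deposited table. Pvr, the other member that binds TIGIT, went from 226 to 510.0 (log2 fold change 1.18 ± 0.49, adjusted p = 0.0461) per the authors' deposited table. The call of Pvr ended when p-values were adjusted over every gene with a p-value (adjusted p = 0.0582), from the authors' deposited table. It held under both scalings, at 1.68 with equal totals (adjusted p = 0.00269) and 1.42 when centred on the median (adjusted p = 0.0136), from the authors' deposited table. Cd47 had implied means of 4016 and 5884 and a log2 fold change of 0.55 ± 0.38 (adjusted p = 0.268) per the authors' deposited table. Scaled to equal totals, Cd47 passed as higher (1.06, adjusted p = 0.0187), from the authors' deposited table.

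Set side by side, with SCLC shared by both comparisons and each table scaled on its own, the GSK levels did not follow those of Normal. From the authors' deposited tables, Cd274 stood at 1903 in GSK and 89.1 in Normal, Cd80 at 350.3 and 39.0, and Cd86 at 226 and 11.1. Nectin2 stood at 533 in GSK and 11474 in Normal, Pvr at 510.0 and 2714, and Lgals9 at 1112 and 3459, from the authors' deposited tables. Differences between GSK and Normal were not tested.

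**Figure D4:**
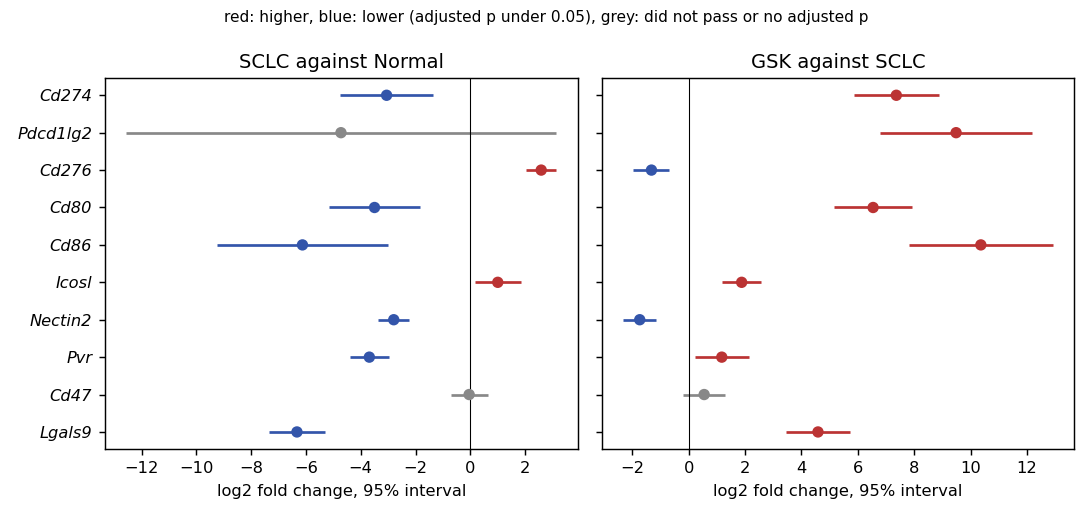
Log2 fold changes of the 10 genes in both comparisons with their 95% intervals from the authors' standard errors, red for higher, blue for lower and grey for genes that did not pass or had no adjusted p. Cd274, Cd80, Cd86, Pvr and Lgals9 were lower in SCLC than in Normal and higher in GSK than in SCLC, while Nectin2 was lower in both and Icosl higher in both.

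The remaining lists place the ligands beside immune receptors and partners, regulators and other ligands. Over all genes tested, 25.3% were higher and 25.1% lower in SCLC than in Normal. In GSK against SCLC the shares were 21.6% and 15.5%, and the counts of each list are to be read beside these. Of 20 other coinhibitory and costimulatory ligands, 18 were tested in each comparison, and 11 were lower and 3 higher in SCLC than in Normal, per the authors' deposited table. The genes that rose were Igsf11 (2.04 ± 0.63), a ligand of VISTA, Cd24a (1.82 ± 0.52), which binds Siglec receptors, and Calr (0.90 ± 0.27), a chaperone that marks dying cells for uptake, per the authors' deposited table. Lgals3, a galectin, had a log2 fold change of -9.37 ± 0.29 and Nectin4, an epithelial nectin, one of -6.51 ± 0.69, per the authors' deposited table. Cd48, a leukocyte antigen, was at least 54.1-fold lower and Tnfsf18, the ligand of GITR, at least 14.5-fold lower, per the authors' deposited table. With GSK, 13 of these ligands were higher and 2 lower, Igsf11 (-3.78 ± 0.78) and Nectin1 (-1.01 ± 0.41), per the authors' deposited table. Cd48 was at least 691-fold higher, Tnfsf4, the ligand of OX40, at least 5.05-fold, Lgals3 rose by 8.10 ± 0.48 and Vsir, which encodes VISTA, by 5.93 ± 0.54, per the authors' deposited table. Their median was 2.62, or 2.37 with genes under a mean of 1 at their bounds, per the authors' deposited table.

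All 14 receptors and partners of the ligands were higher in GSK than in SCLC, against 21.6% of all genes tested, per the authors' deposited table. Of these, 7 had a mean under 1 in SCLC, and the median log2 fold change with such genes at their bounds was 7.27, per the authors' deposited table. Btla was at least 467-fold higher, Ctla4 at least 533-fold, Icos at least 412-fold and Cd200r1 at least 322-fold, per the authors' deposited table. Pdcd1, which encodes PD-1, reached 74.4, and Sirpa, the receptor of Cd47 on macrophages, went from 465 to 5886 (3.66 ± 0.53), per the authors' deposited table. These receptors are leukocyte genes for the most part, and they rose beside the T and NK cell list, which went from 5.19 to 3312 per the authors' deposited table; the part of that list was not tested. In SCLC against Normal, 9 of the 14 were tested, and Cd200r1, Icos, Pdcd1, Tigit and Thbs1 were lower and Lag3 was higher (2.24 ± 0.72), per the authors' deposited table. Cd200r1 was at least 39.3-fold lower, Icos at least 5.88-fold and Pdcd1 at least 5.74-fold, and Tigit had -2.88 ± 1.20 on the log2 scale, per the authors' deposited table. Thbs1, which encodes a matrix protein that binds CD47, had -5.67 ± 0.29 on the log2 scale, per the authors' deposited table.

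Interferon gamma and NF-kB signalling act upstream of Cd274. Of 16 genes tested, 11 were lower in SCLC than in Normal and Rela was higher (0.60 ± 0.26), per the authors' deposited table. The log2 fold change was -3.06 ± 0.43 for Nfkb1, -2.65 ± 0.36 for the adaptor gene Myd88, -2.09 ± 0.59 for Stat2 and -2.06 ± 0.33 for the kinase gene Jak2, per the authors' deposited table. With GSK, 9 of the 16 were higher, against 21.6% of all genes tested, and the other 7 did not pass, per the authors' deposited table. Those 7 were Ifngr2, Stat2, Stat3, Irf2, Irf9, Rela and Tnfrsf1a. Irf1, the factor that activates Cd274 after interferon gamma, rose by 2.51 ± 0.43, the feedback inhibitor gene Socs1 by 2.44 ± 0.62, Nfkb1 by 2.39 ± 0.49 and the receptor gene Ifngr1 by 2.34 ± 0.47, per the authors' deposited table. The median of the list was 1.52, against 0.24 over all genes tested, per the authors' deposited table. The part of these genes, or of the leukocyte markers given above, in the levels of Cd274 was not tested.

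A further list held factors that act on PD-L1 or CD47 as proteins. Of 12 tested, 4 were higher and 2 lower in SCLC than in Normal, against 25.3% and 25.1% of all genes tested, per the authors' deposited table. Cmtm6, which keeps PD-L1 at the cell surface, had -2.63 ± 0.23 on the log2 scale and its relative Cmtm4 -1.27 ± 0.26, per the authors' deposited table. Otub1, a deubiquitinase, rose by 1.45 ± 0.24, the deubiquitinase gene Usp22 by 1.27 ± 0.30, the kinase gene Csnk2a1 by 0.89 ± 0.19 and the ubiquitin ligase gene Stub1 by 0.64 ± 0.23, per the authors' deposited table. With GSK, 6 of the 12 were lower, against 15.5% of all genes tested, and the rest did not pass, per the authors' deposited table. The log2 fold change was -1.53 ± 0.27 for Otub1, -1.44 ± 0.28 for Stub1, -1.41 ± 0.33 for Qpctl, which modifies CD47 for binding to SIRPα, and -1.29 ± 0.25 for Cmtm4, per the authors' deposited table. Cmtm6 had 0.45 ± 0.36 (adjusted p = 0.346) per the authors' deposited table.

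**Figure D5:**
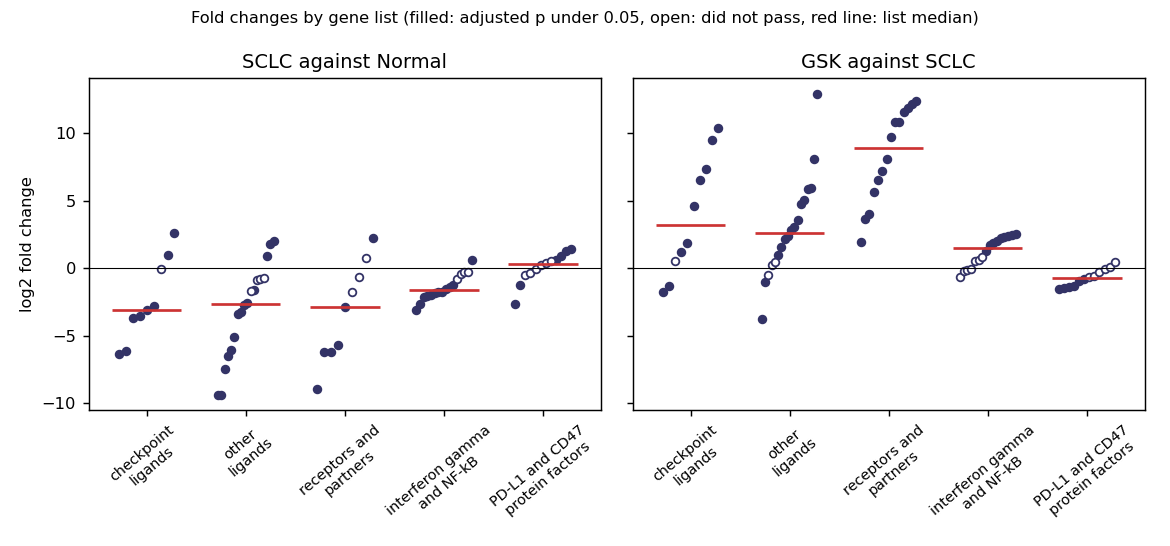
Log2 fold changes of the genes of 5 lists in SCLC against Normal (left) and GSK against SCLC (right), with filled points for genes that passed, open points for those that did not and a red line at each list's median. The receptors and partners lie highest in GSK against SCLC, where all 14 passed, and the PD-L1 and CD47 protein factors lie nearest to 0 in both.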

How the data were processed

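RNA from 9 libraries in 3 groups was sequenced as paired reads of 150 bp, per the labels, and aligned with STAR 2.7.9a to GRCm39, per the submitters' processing notes. The counting tool was not given in the sources used here, nor was the annotation. Per the file headers, each deposited table compares 3 libraries with 3. The authors' signal column is the mean of normalized counts over the 6 libraries. The authors' log2 columns hold the fold change and its standard error, their score column holds the statistic, and the p-value columns hold their unadjusted and adjusted p-value. The adjusted values matched a Benjamini-Hochberg adjustment across all genes with an adjusted value, recomputed, to within 0.00355 on the log10 scale. Per the file headers, columns are named as DESeq2 names them.

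Group means were implied from the mean and fold change, which assumes that the fitted fold change is the ratio of the group means. The control named in the second table was taken as SCLC: over 13634 genes, the log2 ratio of its implied means to those of SCLC in the first table had an SD of 0.00837, against 2.02 for the other arm. A fold against a group under a floor of 3 normalized counts over its libraries, a mean of 1, is given as "at least", using the mean of the other group without its error. Exon lengths are unions of exons in GENCODE M21 (GRCm38). Floors cover counting error only. Recomputed tests were tested on simulated data (Python 3.11.15, scipy 1.17.1). The simulated fold changes were drawn with the authors' standard errors, so the simulation could not check those errors. The test against an absolute log2 fold change of 1 was not simulated. Named genes are all 10 members and up to 4 passing genes per list, by size of change, or all where 5 or fewer passed in one direction. Other markers were named after their values were seen. The same holds, in GSK against SCLC, for Pdcd1, Sirpa, Cmtm6 and the interferon gamma and NF-kB genes that did not pass. Some genes of the marker lists are not reported here by name. Members and lists were chosen with earlier results of these data known. Alternatives were an adjusted p under 0.01, adjustment over every gene with a p-value, a minimum mean of 10, scaling to equal totals, centring on the median and a test against an absolute log2 fold change of 1.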

Additional observations from a re-analysis of the deposited data

How the results depend on the processing

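Fold changes and main counts here are those of the authors' deposited tables, and the alternatives were computed from these tables. Across the alternatives, no ligand gene that passed changed direction, and none could have. Only scaling to equal totals and centring on the median alter fold changes. Their shifts were 0.09 and -0.18 in SCLC against Normal and 0.51 and 0.25 in GSK against SCLC. Every log2 fold change that passed was larger in size than these shifts. Cd47, which did not pass in SCLC against Normal, went from -0.04 to 0.05 when scaled to equal totals and did not pass there either. Of the ligand genes, 8 of the 10 kept their status in SCLC against Normal and 5 in GSK against SCLC under every alternative that could be computed for them. The 8 include Pdcd1lg2, which had no adjusted p and so no call to keep. They also include Cd47, which passed in no setting of that comparison. The count of ligand genes higher in SCLC went from 2 to 1 at an adjusted p under 0.01, with adjustment over every gene with a p-value, with centring on the median, and in the test of an absolute log2 fold change above 1. In each case Icosl dropped out (1.0, or 0.82 when centred). In GSK against SCLC, Pvr (1.18) no longer passed at an adjusted p under 0.01, with adjustment over every gene, or against a log2 fold change of 1. Scaling to equal totals brought in Cd47 (1.06) and lowered the count of all genes lower in GSK from 4404 to 1970.

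The test of an absolute log2 fold change above 1 ended the calls of Cd274 in SCLC (-3.06) and of Cd276 (-1.32), Nectin2 (-1.73) and Icosl (1.88) in GSK. It left 0 ligand genes lower in GSK by the recomputed test, with 1, Nectin2, at an unadjusted p under 0.05. Over all genes it left 2949 higher and 3391 lower in SCLC, and 3161 higher and 563 lower in GSK; its null is stricter by construction. No paired analysis was possible because the deposited tables hold no values of single libraries, and leaving out single replicates was not run for the same reason. Pdcd1lg2 had means of 2.06 and under 1 in SCLC against Normal, where low depth and low expression cannot be told apart.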

Other observations

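Levels of the ligands were also set against the leukocyte gene Ptprc within a group, a ratio that does not depend on how a table was scaled; it was chosen after the values were seen. From the authors' deposited tables, Cd80 stood at 26.99 normalized counts per 100 of Ptprc in Normal and 2.79 in GSK. Cd86 stood at 7.69 and 1.80, and Cd274 at 61.7 and 15.1, from the authors' deposited tables. The ratio was lower in GSK for all 10 ligand genes, for example 2650 and 46.8 for Cd47, and Ptprc itself stood at 144 in Normal and 12562 in GSK, from the authors' deposited tables. The direction of the ratio is therefore not particular to any of them. In SCLC, Ptprc was under a mean of 1, so no ratio was formed; there Cd274 stood at 10.7 and Cd80 at 3.45 normalized counts, from the authors' deposited table with Normal. No spread of these ratios was available, and they were not tested.

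The 4 members that rose furthest with GSK among those with a promoter window, Pdcd1lg2, Cd274, Cd80 and Lgals9, held 3, 11, 3 and 3 CpG in that window. The other 4, Cd276, Nectin2, Icosl and Cd47, held between 16 and 30 in their first listed windows. The genes are few and were known before the windows were compared, so this is a description and was not tested.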
